A study of Homo sapiens with 2 samples.

Results

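Transcripts of 46 genes for the regulators, targets and enzymes of the cell's defence against oxidants were measured by RNA sequencing in the human gastric adenocarcinoma line HGC-27. The genes were chosen by name: 47 names were given, and FSP1, which is no RefSeq symbol but a synonym of 3 genes, was counted with AIFM2, the ferroptosis suppressor. Of the 46 genes, 45 are among the 16021 rows of the expression table, 39 averaged 1 FPKM or more, and GSTM4 is not analysed here. FPKM is a fragment count scaled to transcript length and to the mapped fragments of the library, so levels can be set in order between genes. The cells had been transduced with lentivirus carrying either an shRNA against DDX5, an RNA helicase gene, or a non-targeting shRNA. Both groups received puromycin from 48 h after transduction and were collected after 1 week, so both had passed through viral transduction and drug selection. Whether a group was a pool or a clone, and which DDX5 sequence the shRNA matched, is not stated in the labels. The non-targeting group is called the control library here and the DDX5 shRNA group the knockdown library. Each group was 1 library, so no test, standard error or p-value can be given, and every comparison below sets these 2 libraries side by side.

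NRF2, encoded by NFE2L2, is a transcription factor that KEAP1 holds at a low level by marking it for degradation. Oxidants and electrophiles release NRF2, which pairs with small MAF proteins and binds antioxidant response elements in genes for quinone reduction, thioredoxin recycling and conjugation with glutathione. BACH1 competes for the same elements as a repressor. Peroxiredoxins, catalase, glutathione peroxidases and superoxide dismutase remove peroxides and superoxide, and many of them are expressed without such a stimulus. KEAP1 acts on NRF2 protein, which these RNA data do not measure.

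The labels were checked first. DDX5 stood at 170.5 FPKM in the control and 50.78 FPKM in the knockdown library, or 29.8% of the control level, and its closest relative DDX17 at 74.58 and 100.21 FPKM. Total FPKM was 549129 and 594757, and rescaling both to the same total shifts every log2 ratio of abundant genes by about -0.12. Low values fell near whole steps that correspond to about 1.54e+07 and 1.51e+07 fragments. These estimates rest on 147 genes in each library, of which 71.4% and 72.8% lay within 0.15 of a whole step, the step itself being chosen for the best fit. Of 5 epithelial markers, 4 were listed and KRT8, a keratin, was the highest at 5.24 and 1.31 FPKM, whereas CDH1, the epithelial cadherin, was at 0.36 and 0.07 FPKM. VIM, the mesenchymal intermediate filament gene, stood at 1583.62 and 1270.59 FPKM. Of the other mesenchymal markers, TWIST1 stood at 98.96 and 199 FPKM and ZEB1 at 14 and 17.13 FPKM. FN1 was low, at 4.76 and 5.99 FPKM, and CDH2 nearly absent, at 0.07 and 0 FPKM, so the mesenchymal markers were mixed. The 5 gastric lineage markers on the list (TFF1, TFF2, MUC5AC, GKN1 and PGC) are not analysed here. Of 5 leukocyte and 5 endothelial markers, 3 each were listed. The summed levels of those leukocyte markers (1.48 and 1.53 FPKM) and endothelial markers (0.02 and 0.11 FPKM) were low in both libraries.

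The antioxidant genes as a group lay close to equality between the libraries. The median log2 ratio of FPKM + 1, DDX5 shRNA over non-targeting, was 0.065 over the 39 genes and 0.024 over all 11413 genes past the same limit. At the same total FPKM both medians were below 0, at -0.05 and -0.078. On FPKM + 1, NFE2L1 was the 1 gene of the 39 (2.56%) higher by 2-fold or more, and none was lower by as much. The background over all genes was 4.19% higher and 2.26% lower by 2-fold or more, and the 39 genes do not exceed it. At the same total FPKM that background was 3.3% higher and 3.33% lower, NFE2L1 was still the 1 gene higher by 2-fold, and PRDX3 was lower by 2-fold. Of the 39, 33 lay within 1.5-fold (84.6%, against 76.8% of all genes) and 21 within 1.25-fold (53.8%, against 50.5%). Their middle 50% ran from -0.16 to 0.35, and that of all genes from -0.28 to 0.35. All genes were not matched in level to the 39, of which 10 stood at 100 FPKM or more in the control library. Whether the 39 differ in spread from genes of like level was not tested.

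The direction of small differences depended on the scaling. Of the 39 genes, 24 had a ratio above 0, where 52% of all genes did. At the same total FPKM 17 did, where 43.2% of all genes did. Under all 4 scalings examined (as deposited, same total, centred on the median, centred on a trimmed mean), 17 genes stayed above 0 and 15 below, and 7 changed sign. The 7 were TXNRD1, SRXN1, ABCC1, PRDX2, PRDX6, TXN2 and NQO2, which are described below as near equality. All 39 genes reached 1 FPKM in each library, the lowest value being 1.47 FPKM.

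**Figure D1:**
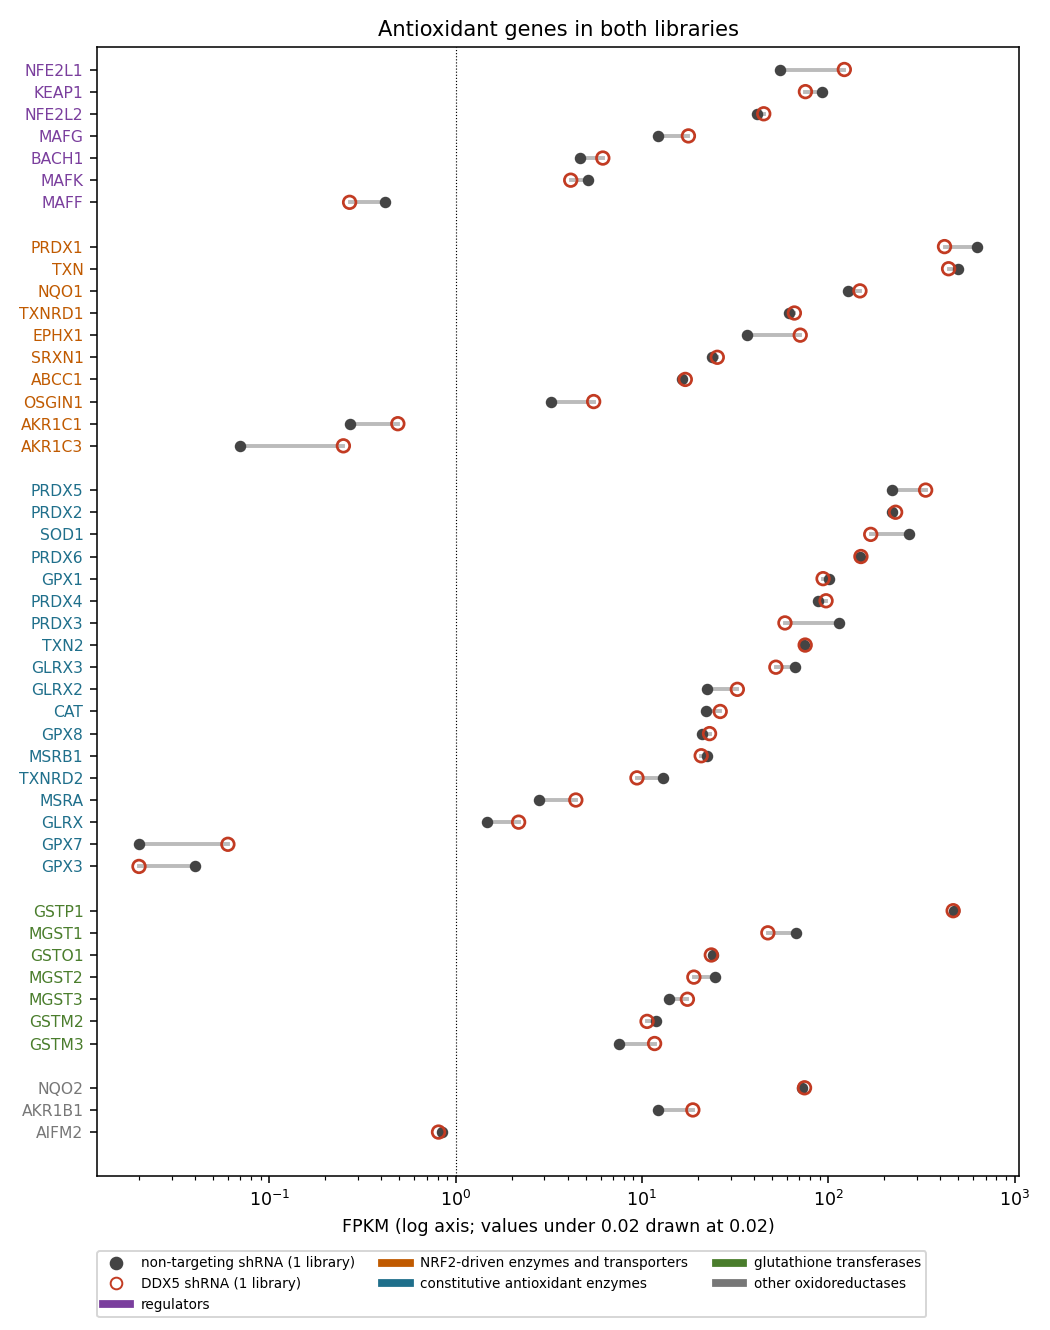
FPKM of the 45 listed antioxidant genes (log axis) in the control library (filled) and the knockdown library (open), ordered by mean level within each role, with gene names coloured by role. PRDX1, TXN and GSTP1 lie farthest right, from 420.83 to 629.41 FPKM, and 6 genes lie left of the dotted line at 1 FPKM.

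The largest difference lay among the regulators. NFE2L1, which encodes NRF1, a relative of NRF2 that is anchored in the endoplasmic reticulum and drives proteasome genes, stood at 55.2 FPKM in the control and 122.02 FPKM in the knockdown library. That is 2.21-fold higher, a log2 ratio of 1.13 (1.02 at the same total) and rank 353 from the highest among 11413 genes. NFE2L2 itself was close to equal, at 41.39 and 45.08 FPKM, with a log2 ratio of 0.12 that became 0.0079 at the same total. The ratio of NFE2L1 to NFE2L2 within a library, which no scaling can alter, was 1.33 in the control and 2.71 in the knockdown library. Of this related pair, NFE2L1 is the one whose level differed more. In bulk RNA, fewer cells expressing a gene and less of its RNA per cell cannot be told apart.

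The partners and antagonists of NRF2 differed less. KEAP1, the adaptor that presents NRF2 for degradation, stood at 92.73 and 75.45 FPKM, 1.23-fold lower in the knockdown library. The ratio of NFE2L2 to KEAP1 was 0.446 and 0.597. BACH1, the repressor, stood at 4.66 and 6.17 FPKM. It was the scarcer of the pair in both libraries, NFE2L2 being 8.88 and 7.31 times its level. Among the small MAF genes, MAFG, itself a known NRF2 target, stood at 12.16 and 17.77 FPKM and MAFK at 5.11 and 4.15 FPKM. MAFF lay below the limit at 0.42 and 0.27 FPKM, worth about 16 and 10 fragments. MAFG was thus the leading small MAF transcript in both libraries, with a log2 ratio of 0.51, and MAFK had one of -0.25. The 6 regulators past the limit gave a median log2 ratio of 0.23 (0.13 at the same total).

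Of the 10 genes set down as NRF2-driven, 8 passed the limit, and their median log2 ratio was 0.098, or -0.014 at the same total. The first 4 described here, and TXN below, lay within 1.25-fold, as 50.5% of all genes did. NQO1, the quinone reductase, stood at 128.32 FPKM in the control library and 147.99 FPKM in the other, a log2 ratio of 0.20 (0.09 at the same total). TXNRD1, the cytosolic thioredoxin reductase, stood at 61.37 and 65.82 FPKM. SRXN1, sulfiredoxin, which repairs overoxidised peroxiredoxins, stood at 23.68 and 25.39 FPKM. Its value is uncertain, since 84.5% of its 50-base windows also occur in the gene model AL121758.1. TXNRD1 and SRXN1 had log2 ratios of 0.10 that turned to -0.014 at the same total. ABCC1, an exporter of glutathione conjugates, gave 16.42 and 17.1 FPKM and a log2 ratio of 0.055, which was -0.053 at the same total.

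The remaining members of the NRF2-driven group lay on both sides of equality. EPHX1, microsomal epoxide hydrolase, stood at 36.6 and 70.75 FPKM, 1.93-fold higher in the knockdown library (log2 ratio 0.93, and 0.82 at the same total). The ratio of EPHX1 to NQO1 was 0.285 in the control and 0.478 in the knockdown library, so the pair did not keep step. OSGIN1, an oxidative stress-induced growth inhibitor, stood at 3.27 and 5.51 FPKM, worth about 120 and 200 fragments. TXN, cytosolic thioredoxin, gave 497.68 and 442.6 FPKM and a log2 ratio of -0.17. PRDX1, the most abundant of all 45 genes in the control library, stood at 629.41 and 420.83 FPKM, 1.5-fold lower (log2 ratio -0.58). The aldo-keto reductase genes AKR1C1 (0.27 and 0.49 FPKM) and AKR1C3 (0.07 and 0.25 FPKM) were barely present. AKR1C1 came to at most about 28 and 50 fragments and AKR1C3 to about 2 and 7. AKR1C1 shares 28.8% of its 50-base windows with other genes, chiefly AKR1C2 (0.09 and 0.08 FPKM), and AKR1C1 to AKR1C3 summed to 0.43 and 0.82 FPKM.

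**Figure D2:**
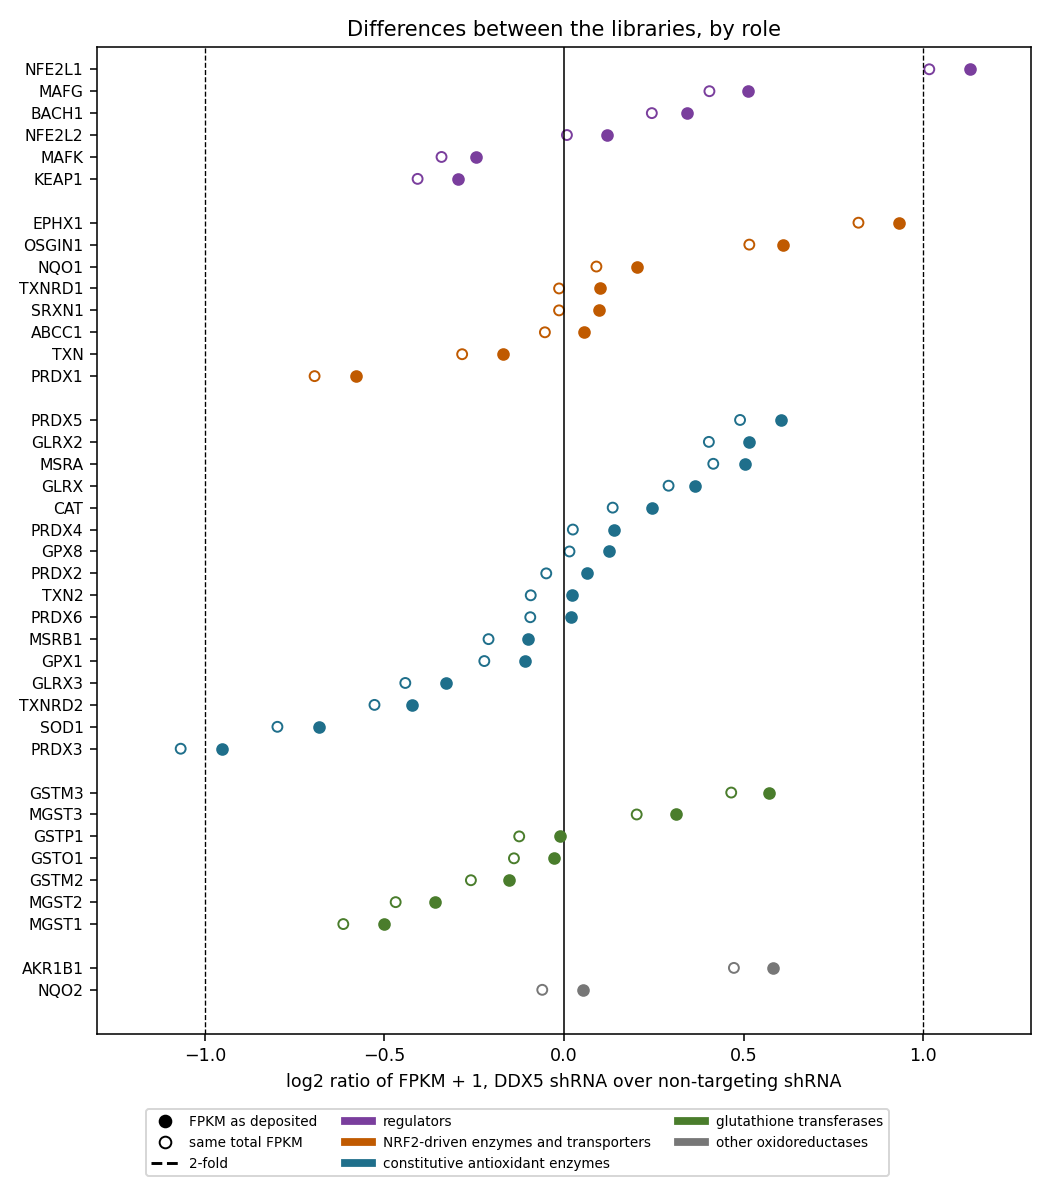
Log2 ratio of FPKM + 1, DDX5 shRNA over non-targeting shRNA, for the 39 genes at a mean of 1 FPKM or more, by role, with FPKM as deposited (filled) and at the same total (open); dashed lines mark 2-fold. NFE2L1 at 1.13 is right of the upper line, and PRDX3 crosses the lower line only at the same total, at -1.07.

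Sequence near the start of these genes was then searched for the core of the antioxidant response element, TGACNNNGC, on both strands, in RefSeq windows from 250 bases before to 50 after each listed start (GRCh38.p14). Windows were at hand for 37 of the 46 genes, 55 windows in all with alternative starts, and 9 of these held the core (16.4%), where 13.3% of 35116 windows of all genes did. The core was in 3 of 12 windows of NRF2-driven genes and in 0 of 18 windows of constitutive enzymes. Counted by gene, that is 2 of 8 (EPHX1 and TXNRD1) and 0 of 13, where 4384 of 27305 genes with windows held it. These groups are too small for the counts to set them apart, and the contrast was not tested. In the list of other NRF2 targets described below, the core was in 7 of 21 windows and 7 of 18 genes. No window was at hand for PRDX1 and ABCC1 among the NRF2-driven genes. The same holds for GLRX3, MSRA, PRDX6, SOD1 and TXN2 among the constitutive enzymes. A match is a description of letters and not a binding site, and known elements can lie farther upstream. Stretches before 5 genes are shown because these are genes whose values differ in kind: EPHX1 among the highest ratios, GSTP1 and TXNRD1 near equality, KEAP1 as the inhibitor and AIFM2 as a scarce transcript. Capitals mark each match, which is the core itself or, in AIFM2 and at the second match of KEAP1, its reverse complement, and each line reads 5′ to 3′ on the gene's strand.
EPHX1 (chr1:225825251-225825309, plus strand): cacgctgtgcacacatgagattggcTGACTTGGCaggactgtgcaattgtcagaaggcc
TXNRD1 (chr12:104215655-104215713, plus strand): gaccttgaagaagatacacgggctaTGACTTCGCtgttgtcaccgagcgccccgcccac
GSTP1 (chr11:67583721-67583779, plus strand): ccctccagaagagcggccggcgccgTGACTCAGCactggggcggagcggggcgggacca
KEAP1 (chr19:10502792-10502850, minus strand): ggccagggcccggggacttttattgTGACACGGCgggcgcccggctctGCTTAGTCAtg
AIFM2 (chr10:70132826-70132872, minus strand): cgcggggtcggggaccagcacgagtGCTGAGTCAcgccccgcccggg

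The core begins 78 bases before a listed start of EPHX1, 99 before one of TXNRD1, 66 before that of GSTP1, 54 before one of KEAP1 (with the second match at 31) and 22 before that of AIFM2. TXNRD1 held further matches, and GSTO1, MAFF and MGST1 held matches that are not shown. The match of MGST1 lies after its listed start. Windows with a match belonged to genes with log2 ratios from 0.93 (EPHX1) through -0.01 (GSTP1) to -0.50 (MGST1). The windows of NFE2L1 and NQO1 did not hold these letters.

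The peroxiredoxins reduce hydrogen peroxide with a reactive cysteine and are recycled, in most cases, by thioredoxin. Their 6 transcripts summed to 1419 FPKM in the control and 1290 FPKM in the knockdown library. The second sum is 90.9% of the first, and its make-up differed. PRDX1, cytosolic, held 44.4% of the sum in the control library and 32.6% in the other. PRDX5, found in mitochondria, peroxisomes and cytosol, stood at 218.86 and 333.3 FPKM, and its share was 15.4% and 25.8%. PRDX3, a mitochondrial enzyme, stood at 114.39 and 58.58 FPKM, and its share was 8.06% and 4.54%.

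PRDX3 had the lowest log2 ratio of all 39 genes, at -0.95 (1.95-fold lower, rank 309 from the lowest of 11413), and passed 2-fold at the same total, at -1.07. PRDX5 had one of 0.60. The ratio of PRDX3 to PRDX5 was 0.523 in the control and 0.176 in the knockdown library, 2.97-fold lower. The remaining peroxiredoxins were near equality. PRDX2, cytosolic, stood at 219.84 and 230.02 FPKM and PRDX6, which uses glutathione rather than thioredoxin, at 147.69 and 149.79 FPKM, both just below 0 at the same total. PRDX4, which works in the endoplasmic reticulum, stood at 88.37 and 97.36 FPKM. In order of level the control library ran PRDX1, PRDX2, PRDX5, PRDX6, PRDX3, PRDX4. In the knockdown library PRDX5 came before PRDX2, and PRDX4 before PRDX3, although PRDX2 and PRDX5 had differed by less than 1 FPKM in the control library.

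**Figure D3:**
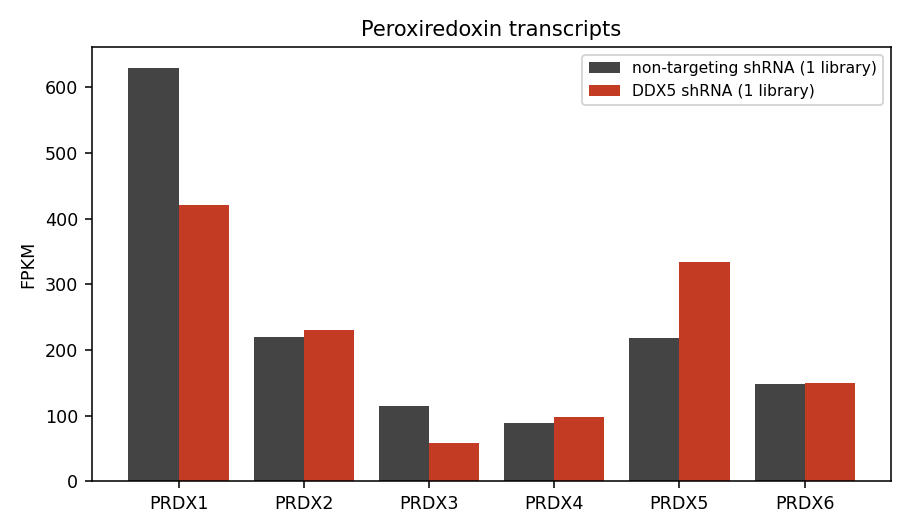
FPKM of the 6 peroxiredoxin genes in the control (dark, non-targeting shRNA) and knockdown (red, DDX5 shRNA) libraries, 1 library each. PRDX1 and PRDX3 are lower in the knockdown library, PRDX5 is higher, and the other bars are near equal in pairs.

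Sorted by compartment, the mitochondrial enzymes were mixed. Of 5 mitochondrial enzymes, PRDX5 and GLRX2 were higher, PRDX3 and TXNRD2 lower and TXN2 near equality. GLRX2, mitochondrial glutaredoxin, stood at 22.48 and 32.53 FPKM (log2 ratio 0.51). TXNRD2, mitochondrial thioredoxin reductase, stood at 12.95 and 9.41 FPKM (log2 ratio -0.42). TXN2, mitochondrial thioredoxin, which hands electrons to PRDX3, stood at 74.13 and 75.22 FPKM, and PRDX3 was 1.54 and 0.779 times its level. The ratio of TXNRD1 to TXNRD2 was 4.74 and 6.99. The mitochondrial median was 0.021 (-0.093 at the same total). Because PRDX5 is the most abundant of the 5, their summed level was 115% of the control level even so. That sum counts PRDX5 as wholly mitochondrial, although it is also found in peroxisomes and cytosol.

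In the cytosol, 3 of the most abundant enzymes, PRDX1, TXN and SOD1, were lower in the knockdown library. Of the 10 genes listed as cytosolic, 5 had a ratio above 0 (50%, where 52% of all genes did) and 5 below. At the same total 1 was above (GLRX) and 9 below, where 43.2% of all genes were above. Among those 9, TXNRD1, SRXN1, PRDX2 and PRDX6 were near equality. GSTP1, GSTO1, NQO1, NQO2 and AKR1B1 were not placed on this list, so its counts, median and sum depend on the genes chosen. Their median was -0.044 (-0.16 at the same total), and their summed FPKM was 81.8% of the control level, since PRDX1, TXN and SOD1 carry most of the sum. SOD1, the copper-zinc superoxide dismutase, stood at 272.15 and 169.09 FPKM, 1.61-fold lower (log2 ratio -0.68, and -0.80 at the same total). CCS, the chaperone that loads copper into SOD1, was on the other side at 12.42 and 22.8 FPKM. The ratio of SOD1 to CCS was 21.9 in the control and 7.42 in the knockdown library. SOD2, the mitochondrial manganese enzyme, stood at 17.25 and 10.58 FPKM, and the ratio of SOD1 to SOD2 was 15.8 and 16.0. The 2 dismutases were thus lower in like proportion.

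The other constitutive enzymes were spread on both sides of equality. GLRX3, a glutaredoxin of iron-sulfur cluster handling, stood at 66.03 and 52.37 FPKM (log2 ratio -0.33) and GLRX, the cytosolic one, at 1.47 and 2.18 FPKM, worth about 31 and 45 fragments. CAT, peroxisomal catalase, stood at 22.04 and 26.32 FPKM (log2 ratio 0.25). Among the 4 glutathione peroxidase genes of the 46, GPX1 was the highest, at 101.23 and 93.85 FPKM. GPX8, of the endoplasmic reticulum, stood at 21.07 and 23.07 FPKM. GPX3 (0.04 and 0 FPKM) and GPX7 (0 and 0.06 FPKM) came to about 1 fragment or fewer per library, and no ratio is given for them. The methionine sulfoxide reductase MSRA stood at 2.82 and 4.42 FPKM (log2 ratio 0.50) and MSRB1 at 22.38 and 20.81 FPKM. The 16 constitutive enzymes past the limit gave a median ratio of 0.043 (-0.071 at the same total). Of these, 10 were above 0 (62.5%, where 52% of all genes were) and 6 below. At the same total 7 were above 0 (43.75%), near the 43.2% of all genes.

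The members known to contain selenocysteine, a grouping made after the values were seen, are TXNRD1, TXNRD2, GPX1, GPX3 and MSRB1. The 4 of them past the limit had log2 ratios from -0.42 to 0.10. GPX4, the selenoenzyme that reduces lipid peroxides and is not among the 46, stood at 325.43 and 426.13 FPKM (log2 ratio 0.39).

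NRF2-driven genes were set against constitutive enzymes by their medians. The NRF2-driven median exceeded the constitutive one by 0.055 on the log2 scale, and by between 0.032 and 0.109 under the alternatives, a wider NRF2 list among them. This gap is small beside the range within each group, from -0.58 to 0.93 among NRF2-driven genes and from -0.95 to 0.60 among constitutive ones. By summed FPKM the order was the other way, at 85.7% of the control level for the NRF2-driven genes and 97.9% for the constitutive ones, because PRDX1 and TXN dominate the former. The ranges overlapped from -0.58 to 0.60, with EPHX1 above every constitutive enzyme and PRDX3 and SOD1 below every NRF2-driven gene. OSGIN1 lay just above PRDX5, the highest constitutive enzyme, at 0.608 and 0.605. With a pseudocount of 5 it lay below PRDX5, at 0.35 and 0.60.

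**Figure D4:**
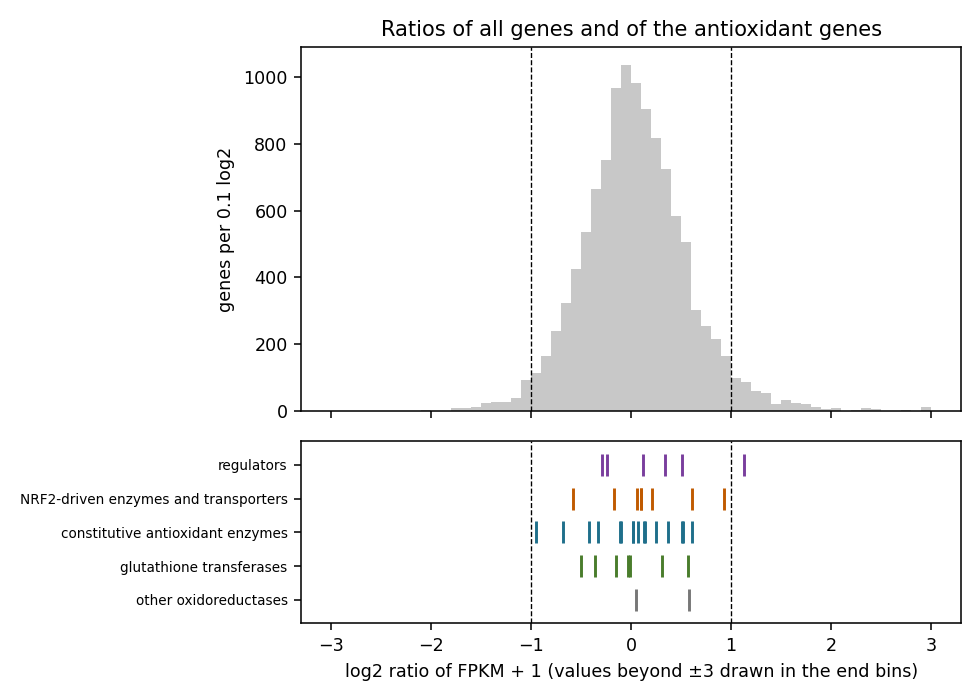
Top, number of genes per 0.1 of log2 ratio (FPKM + 1, DDX5 shRNA over non-targeting) for 11413 genes; bottom, each of the 39 antioxidant genes as a tick by role, with dashed lines at 2-fold. The ticks spread over the middle of the distribution in every role, and 1 regulator, NFE2L1, lies past 2-fold.

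Glutathione transferases join glutathione to electrophiles. GSTP1, the pi-class enzyme, was the most abundant at 471.7 and 468.43 FPKM, 99.3% of the control level. GSTO1, an omega-class enzyme, was likewise near equality at 24.08 and 23.58 FPKM. The membrane enzyme MGST1 stood at 67.56 and 47.43 FPKM (log2 ratio -0.50) and MGST2 at 24.66 and 19.01 FPKM (-0.36), whereas MGST3 stood at 13.96 and 17.55 FPKM (0.31). Of the mu class, GSTM2 stood at 11.97 and 10.66 FPKM and GSTM3 at 7.56 and 11.7 FPKM (log2 ratio 0.57). The value of GSTM2 is uncertain, since 27.8% of its 50-base windows occur in relatives, chiefly GSTM4, and GSTM1, GSTM4 and GSTM5 are not analysed here. GSTM3 shares 1.2% of its windows. The median of the 7 transferases was -0.029 (-0.14 at the same total). Of the 7, 2 were above 0 (28.6%) both as deposited and at the same total, where 52% and 43.2% of all genes were.

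Among the remaining oxidoreductases, AKR1B1, aldose reductase, stood at 12.22 and 18.77 FPKM (log2 ratio 0.58). NQO2, a quinone reductase related to NQO1, gave 71.9 and 74.62 FPKM and a log2 ratio of 0.053, which was -0.061 at the same total. AIFM2, which regenerates reduced coenzyme Q at membranes, was below the limit at 0.85 and 0.81 FPKM, worth about 42 and 40 fragments.

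Other genes of the pathway, which are not among the 46, were then examined in a list of NRF2 targets and a list of antioxidant and thioredoxin-like genes. Both lists were chosen with earlier results of these data known. Their shares past 2-fold therefore describe the genes listed and not antioxidant genes at large. Of 20 other NRF2 targets past the limit, 2 (10%) were higher by 2-fold or more and none lower by as much, beside 4.19% and 2.26% of all genes. In that list 11 ratios (55%) were above 0, where 52% of all genes were, and 10 (50%) after scaling to equal totals, where 43.2% were, with a median of 0.15 (0.033 after scaling). SLC7A11, the cystine importer, which ATF4 also drives, stood at 7.3 and 24.84 FPKM (log2 ratio 1.64). SLC48A1, a heme transporter, stood at 4.6 and 12.13 FPKM (1.23). FTH1, ferritin heavy chain, at 2258.48 and 4240.2 FPKM, BLVRB, biliverdin reductase B, at 50 and 92.26 FPKM, and HMOX1, heme oxygenase 1, at 10.13 and 18.94 FPKM had log2 ratios of 0.91, 0.87 and 0.84. These last 4 act in heme and iron handling. The glutamate-cysteine ligase genes GCLC (17.36 and 16.78 FPKM) and GCLM (7.97 and 6.39 FPKM), which start glutathione synthesis, had log2 ratios of -0.05 and -0.28.

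Of 23 other antioxidant genes past the limit, 4 (17.4%) were higher by 2-fold or more and none lower by as much, beside the same 4.19% and 2.26% of all genes. The list, chosen with earlier results known, holds TXNIP and SESN2, at ranks 10 and 29 from the highest of 11413 genes. The larger share is therefore no finding about antioxidant genes as a class. TXNIP, which binds and inhibits thioredoxin, had the largest difference of either list, at 14.33 and 127.83 FPKM (8.92-fold, log2 ratio 3.07). TXN itself, as given above, was 1.12-fold lower. SESN2 stood at 5.45 and 32.6 FPKM and SESN3 at 4.31 and 11.15 FPKM, and both encode sestrins, which restrain mTORC1. MSRB2, a mitochondrial methionine sulfoxide reductase, stood at 4.49 and 11.55 FPKM (log2 ratio 1.19), beside MSRB1 near equality.

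**Figure D5:**
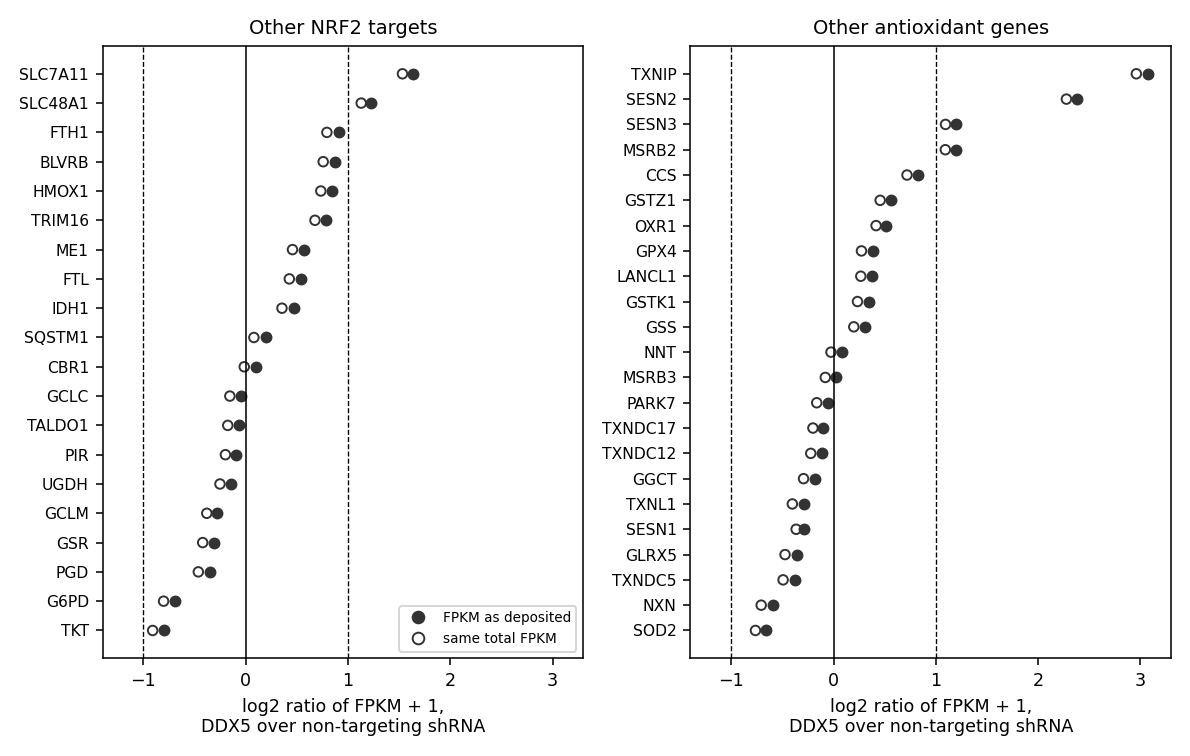
Log2 ratio of FPKM + 1, DDX5 shRNA over non-targeting shRNA, for 20 other NRF2 targets (left) and 23 other antioxidant genes (right), as deposited (filled) and at the same total (open), with dashed lines at 2-fold. SLC7A11 and SLC48A1 pass 2-fold on the left, and TXNIP, SESN2, SESN3 and MSRB2 on the right.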

How the data were processed

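RNA was taken from HGC-27 cells with Trizol and made into Illumina libraries, as the labels' protocols state. The table that the authors deposited gives FPKM values, 1 column per library, per the file headers, and columns were matched to groups by sample title. RSEM 1.2.8, HISAT, Bowtie2 and hg19 are named, without roles, in the submitters' processing notes. Annotation, strand setting and filters: not given in the sources used here. Entrez numbers were paired with RefSeq symbols (GRCh38.p14) for 15289 of 16021 rows.

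Differences are log2 ratios of FPKM + 1, DDX5 shRNA over non-targeting, which understates differences of low genes, over genes at a mean of 1 FPKM or more. A count of genes 2-fold apart is on that scale, and a fold printed for 1 gene is the ratio of FPKM. With 1 library per group nothing was tested. The settings varied were the pseudocount (0.1 or 5), the filter (none, or 5 FPKM) and the scaling (same total FPKM, median centring, or centring on a mean after trimming 30% from both ends). Shared sequence is the percentage of 50-base windows, every 10 bases of the longest GENCODE v29 coding transcript, found in another gene's coding transcript. Pseudogenes, which PRDX1, TXN and FTH1 among others have, were not searched. Fragment numbers use that transcript's full length and can be too high. Named genes were all 46, DDX5 and DDX17, near copies, the 5 largest absolute ratios of each pathway list at 5 FPKM or more, and HMOX1, GCLC, GCLM, SLC7A11, GPX4 and SOD2. The genes and lists were chosen with earlier results of these data known. The calculations were tested on simulated data and used Python 3.11.15, numpy 2.4.6, pandas 2.3.3 and matplotlib 3.10.9.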

Additional observations from a re-analysis of the deposited data

How the results depend on the processing

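No paired analysis was possible because each group holds 1 library, and for the same reason no library could be left out. Under the 5 alternatives that can move a single ratio (pseudocounts and scalings), each of the 39 ratios and that of DDX5 moved by less than the robust SD of ratios of genes at like expression. The scalings could hardly exceed that wide spread, since the same total shifts ratios by only about -0.12. The comparison therefore says little about them, and 7 of the 39 genes did change sign between scalings. Counts over all genes depended on the pseudocount and the scaling: 743 were at least 2-fold higher and 390 lower with 0.1, and 194 and 102 with 5, whereas at the same total 376 were higher and 380 lower in place of 478 and 258. At the same total FPKM the antioxidant median moved to -0.0496 and 1 of the 39 genes, PRDX3, was at least 2-fold lower. The group medians then were 0.13 for regulators, -0.014 for NRF2-driven genes, -0.071 for constitutive enzymes, -0.14 for transferases and 0.21 for other oxidoreductases. Those of the compartments were -0.16 (cytosol), -0.093 (mitochondria) and 0.0197 (endoplasmic reticulum), and those of the other NRF2 targets and other antioxidant genes 0.033 and -0.025. The regulator median was 0.12 with no filter and 0.34 at a mean of 5 FPKM or more. That of other oxidoreductases was 0.053 with no filter, and that of other antioxidant genes 0.20 at 5 FPKM or more. With a pseudocount of 5, 1 other NRF2 target and 2 other antioxidant genes were at least 2-fold higher. The spread between cultures was not measured, and depth limits the values of genes below 1 FPKM.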
